A study of Mus musculus with 14 samples.

Results

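The step described here is the start of differentiation of mouse embryonic stem (ES) cells, in which they begin to leave naive pluripotency, measured as the difference between undifferentiated WT ES cells and embryoid bodies (EBs) that the same line had formed after 2 days of differentiation. It rests on 2 of the 14 samples of the series, 1 poly-A RNA-seq library per side, with no replicate of either. ES cells were of the JM8 clone on a C57BL/6 background, labelled wild type, and were grown with LIF and serum on feeder layers of mouse embryonic fibroblasts (MEFs) whose division had been stopped with mitomycin C. EBs were cells of that clone kept in a medium of DMEM, F12 and neurobasal with B27, given retinoic acid (RA) and SAG, an agonist of Smoothened, which together lead toward motor neurons. LIF, serum and feeders are not listed for it. The methods list both agents with the medium and name no separate day of addition. A second pair of libraries, from the Taf9b_BG10 clone labelled *Taf9b* -/- on the same background, was made at the same stages and is set beside the WT pair throughout. It is 1 clone, labelled as another genotype, and is not counted as a replicate. EBs labelled WT at days 4 and 6 give the later levels.

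Every value is in FPKM, fragments scaled to the length of the transcript and the number of mapped fragments, which Cuffdiff computed from reads mapped to RefSeq genes. Of 23109 loci that could be joined between the tables, 12278 were above 1 FPKM in at least 1 WT library and were counted as expressed. A difference is given as a log2 ratio of day 2 over ES cells, after subtracting 0.044, the median of the 11297 loci above 1 FPKM in both. A locus is called higher or lower when it lies past 2-fold. With 1 library per side there is no test, and no value here carries a replicate error. The low values of genes with a single transcript piled up at steps of 17.6 FPKM-bases in ES cells and 26.6 at day 2. If such a step is 1 fragment, 1 FPKM on a transcript of 2000 bases stands for about 113 fragments in ES cells and 75.1 at day 2.

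ES cells kept with LIF and serum are held in a naive state, close to that of the inner cell mass before implantation. *Pou5f1* (OCT4) and *Sox2* specify pluripotency in general, whereas factors such as *Klf4*, *Tfcp2l1* and *Esrrb* belong to its naive form, and LIF maintains part of them through STAT3. When LIF is removed, cells pass through a formative state like that of the epiblast just after implantation, marked by *Otx2*, *Fgf5* and *Pou3f1*, before they become responsive to signals that pattern the germ layers. In motor neuron protocols RA then gives spinal identity through *Hox* genes, and Sonic hedgehog (Shh) signalling gives ventral identity.

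Both libraries carried the markers of ES cells. The 5 markers *Pou5f1*, *Sox2*, *Nanog*, *Zfp42* and *Esrrb* were all above 1 FPKM in both, and they summed to 1476 FPKM in ES cells and 1200 at day 2. Markers of neural cells summed to 11.2 and 8.97 FPKM, of neurons to 32.8 and 35.6, of endoderm to 1.40 and 4.26, and of mesoderm to 11.2 and 15.5. The label of the day 2 library as cells that have only begun to differentiate is matched by these levels. *Taf9b* itself went against the labels. It was at 0.537 and 0.516 FPKM in the WT ES and day 2 libraries, and at 3.06 and 4.08 FPKM in those labelled KO. The WT libraries of days 4 and 6, from other tables, had 1.96 and 1.37 FPKM. WT and KO are therefore used here as names of labels. The KO-labelled libraries of days 4 and 6 were not used. Whether the label WT names the same clone at every stage was not tested.

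Between the WT libraries, 569 of 12232 loci with a ratio were higher at day 2 (4.65% of them) and 1006 were lower (8.22%), so 12.9% were past 2-fold in 1 direction or the other. These shares over all loci are the scale for the counts of list members given below. Differences between clones at one stage were rarer. In ES cells 0.685% of loci were past 2-fold between the libraries labelled WT and KO, and at day 2 it was 2.14%. The KO-labelled pair, which shares no library with the WT pair, had 676 loci higher (5.54%) and 1022 lower (8.37%), or 13.9% in all. Of the loci higher in the WT pair 378 were higher in the other pair too, 66.4% of the WT list and 55.9% of the KO list. Of the lower loci 782 were shared, which is 77.7% and 76.5%. Over 11091 loci above 1 FPKM in all 4 libraries the ratios of both pairs had Pearson's r = 0.896 and Spearman's rho = 0.867, a description across loci, which are no replicates. The libraries of a stage share a Cuffdiff table.

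**Figure D1:**
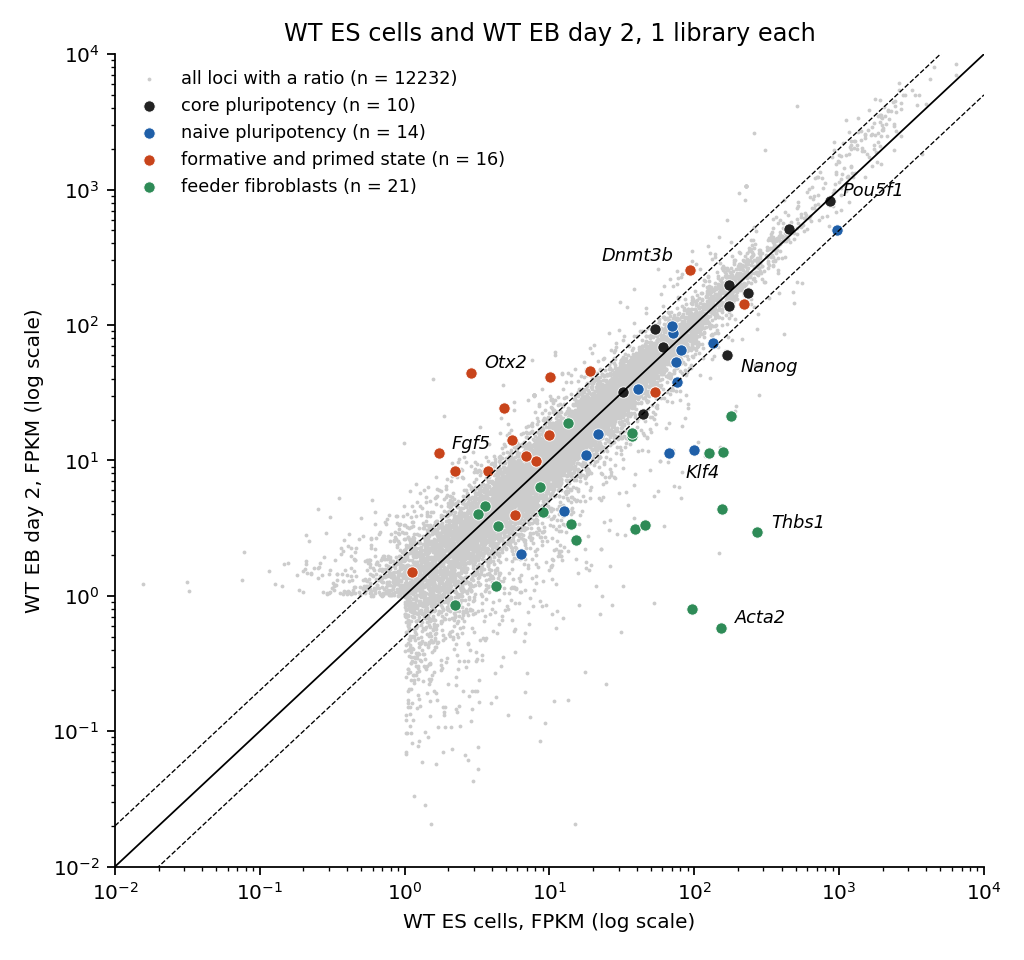
FPKM of each locus in WT ES cells (x axis) and WT EBs at day 2 (y axis), both on log scales, for the 12232 loci with a ratio. The solid line marks equal values and the dashed lines 2-fold differences before centring. Core pluripotency genes (black) lie near the line with *Pou5f1* at 859 and 829 FPKM, formative genes such as *Otx2* lie above it, and naive genes such as *Klf4* and feeder fibroblast genes such as *Acta2* lie below it.

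Core pluripotency genes were held at day 2, with *Nanog* as the clearest departure. Of 10 genes on this list none was higher and 2 were lower, where 4.65% and 8.22% of all loci were, and the median log2 ratio was -0.07, beside -0.01 over all expressed loci. *Pou5f1* (NM_001252452, mm9 chr17:35642977-35647722) went from 859 FPKM in ES cells to 829 at day 2. Its partner *Sox2* was at 233 and 172 FPKM. *Utf1*, a chromatin factor of pluripotent cells, was at 449.6 and 508 FPKM, and the RNA-binding protein gene *Lin28a* at 173 and 197. None of these 4 genes reached 2-fold in either pair. *Nanog* (NM_028016, chr6:122657586-122663796), the homeobox gene that guards self-renewal, went from 168 FPKM in ES cells to 60.4 at day 2, a log2 ratio of -1.52. In the KO-labelled pair it was at 182 and 51.5 FPKM. At day 4 *Pou5f1* was at 19.9 and *Nanog* at 3.77 FPKM, and at day 6 they were at 198 and 62.5 FPKM. These later levels, here and below, rest on the WT label naming the same clone, which was not tested.

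Most naive genes had lower levels at day 2, to uneven extents. All 14 were expressed, 5 were lower past 2-fold and none was higher, 12 ratios were below 0, and the median was -0.83 in the WT pair and -0.72 in the KO-labelled pair. *Klf4* (NM_010637, chr4:55540009-55545347), a zinc finger factor induced by LIF, went from 99.4 FPKM in ES cells to 12.0 at day 2, and at 90.3 and 6.26 FPKM in the KO-labelled libraries. It was 8.53-fold lower, the largest difference of the list. *Tfcp2l1*, another STAT3 target, was at 66.4 and 11.4 FPKM (log2 ratio -2.59). *Prdm14*, which represses Fgf signalling and DNA methylation genes, was at 6.35 and 2.02 FPKM. The nuclear receptor gene *Nr5a2* was at 12.7 and 4.25 FPKM, and *Klf5* at 76.1 and 37.9. Among these 5 lower genes 4 were also past 2-fold in the KO-labelled pair, where *Klf5* had a log2 ratio of -0.67. The fibroblast markers were lower along with the naive genes, at 707 and 79.6 FPKM in sum and 15.3 and 4.17 at the median. Their part in these values was not tested.

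Other naive genes moved less. *Esrrb*, an orphan nuclear receptor gene, was at 135 and 73.9 FPKM (log2 ratio -0.91), close to the limit. *Zfp42* (REX1), whose loss is often used to follow the exit, was at 80.6 and 65.2 FPKM. *Nr0b1* was at 40.6 and 33.7 FPKM. *Klf2* and *Dppa3* had ratios above 0, at 0.25 and 0.44. By day 4 all of these had lower levels, *Zfp42* at 3.91, *Esrrb* at 1.53 and *Klf2* at 3.20 FPKM. At day 6 these 3 genes were at 49.2, 26.9 and 60.3 FPKM. Day 2 therefore held *Klf4* and *Tfcp2l1* at low levels beside *Zfp42*, *Klf2* and *Dppa3* near their ES cell levels.

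All 10 components and targets of the LIF pathway had ratios below 0, and 5 were lower past 2-fold. They spread from -3.25 for *Osmr* to -0.06 for *Junb*, and the median was -1.05, with -1.27 in the KO-labelled pair. *Socs3*, the feedback inhibitor that STAT3 induces, went from 34.8 FPKM in ES cells to 4.66 at day 2 (log2 ratio -2.95), and at 32.2 and 4.16 in the KO-labelled libraries. *Bcl3*, a target as well, was at 26.3 and 3.62 FPKM. The kinase gene *Pim1* was at 71.4 and 33.2 FPKM. These 3 targets were lower at day 2 in both pairs. Of the receptor genes, *Il6st* (gp130) was at 22.2 and 10.5 FPKM and *Lifr* at 8.56 and 6.58. *Osmr*, the oncostatin M receptor gene, was at 3.14 and 0.339 FPKM. *Stat3* was at 27.8 and 14.7 FPKM (log2 ratio -0.97) and *Jak1* at 21.2 and 12.6. *Pim2*, a paralog of *Pim1* outside the list, was among the 15 largest rises, at 30.6 and 148 FPKM. Fibroblast markers moved with this list, from a sum of 707 FPKM to 79.6 and a median of 15.3 to 4.17. Their part in it was not tested.

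Formative genes had the highest list median of the WT pair, 1.16. It was 0.956 in the KO-labelled pair, where the ATF4 list had 0.964. Of 16 expressed members 9 were higher past 2-fold and none was lower. *Otx2* (NM_144841, chr14:49277859-49282547), the homeobox gene that redirects OCT4 to formative enhancers, went from 2.88 FPKM in ES cells to 44.4 at day 2, 14.97-fold higher, and at 1.71 and 30.0 FPKM in the KO-labelled pair. *Fgf5*, the growth factor gene that marks the epiblast after implantation, was at 1.71 and 11.3 FPKM (log2 ratio 2.68). *Pou3f1* (OCT6) was at 4.81 and 24.3 FPKM. Each of these 3 genes was at a higher level at day 2 in both pairs. *Zic2* was at 10.01 and 41.0 FPKM, *Sox3* at 2.23 and 8.34, and *Foxd3*, needed for the exit from the naive state, at 5.52 and 14.04. *Lef1*, a transcription factor of the Wnt pathway, was at 3.77 and 8.29 FPKM. *Etv4*, *Cdh2* and *Dnmt3l*, also on this list, had log2 ratios of -0.78, -0.60 and -0.67.

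Several of these genes were at their highest of the 4 stages at day 2. *Otx2* was at 0.0950 FPKM at day 4 and 0.215 at day 6, and *Fgf5* at 0.149 and 1.11. *Foxd3* was at 0.0965 and 1.58 FPKM. *Sox3* went the other way, to 150.4 FPKM at day 4, as did *Sfrp2*, which was at 9.91 FPKM in ES cells, 15.4 at day 2 and 160.2 at day 4. Both are genes of neural progenitors too.

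**Figure D2:**
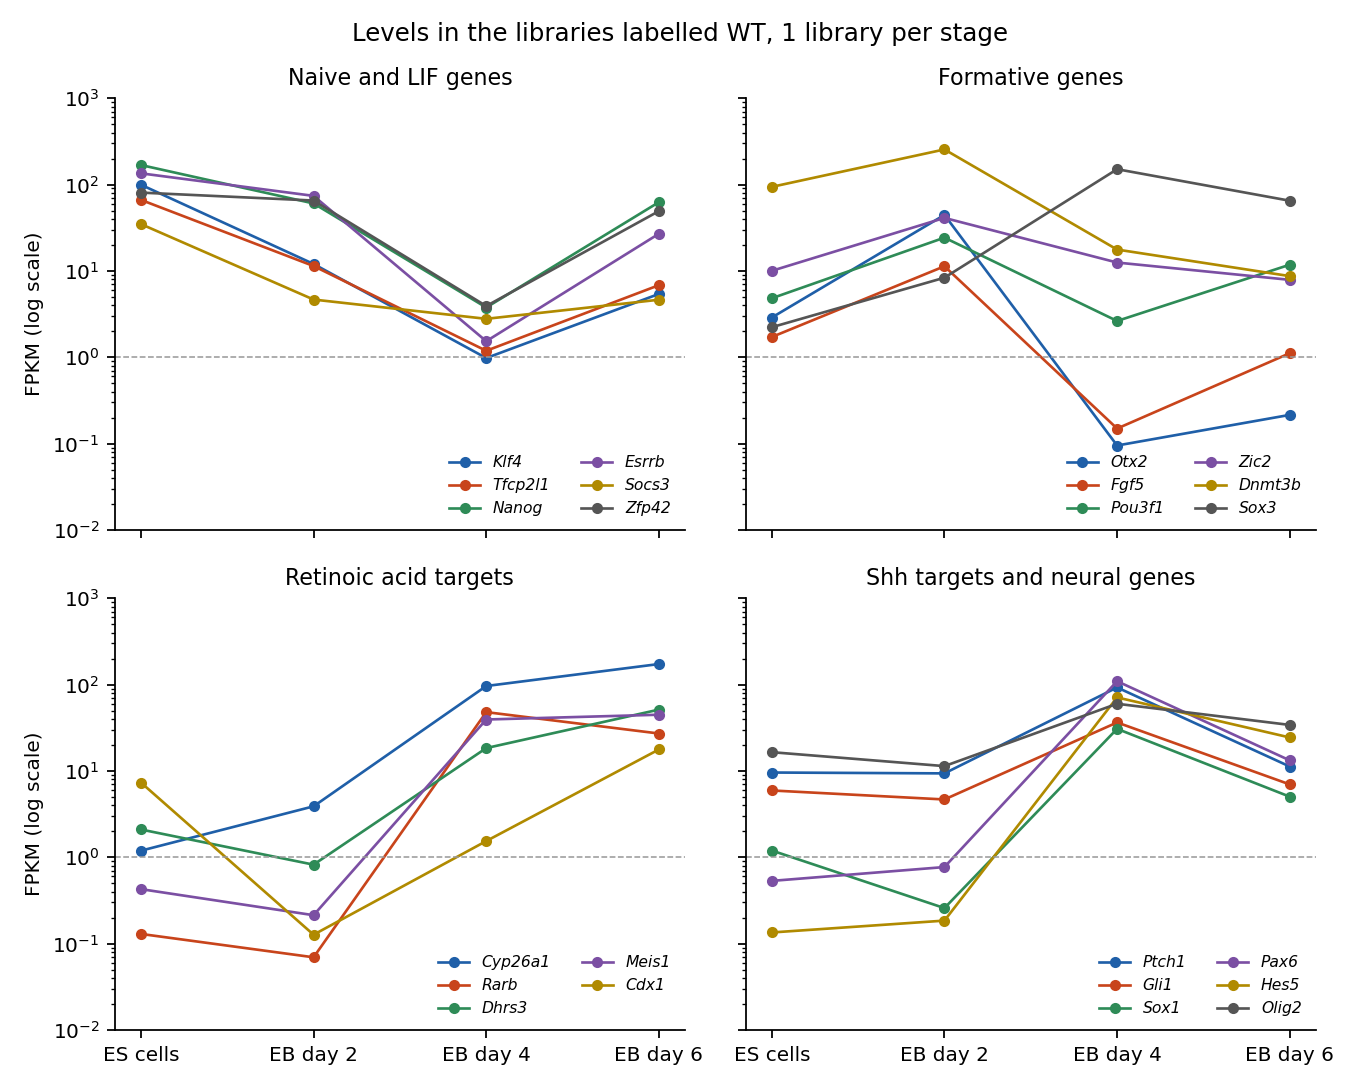
FPKM (log scale) of 23 genes in the WT libraries of ES cells and of EBs at days 2, 4 and 6, 1 library per stage, in 4 panels by role. The dashed line marks 1 FPKM. *Klf4* and *Tfcp2l1* are lower at day 2 and *Otx2* and *Fgf5* peak there, while of the RA, Shh and neural genes *Cyp26a1*, *Pax6* and *Hes5* are above their ES cell levels at day 2 and all but *Cdx1* are above them at day 4.

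Of the genes that add or remove DNA methylation, both de novo methyltransferases were higher and *Tet1* and *Tet2* lower. The de novo methyltransferase gene *Dnmt3b* went from 93.9 FPKM in ES cells to 255 at day 2 (log2 ratio 1.40), and at 133 and 249 in the KO-labelled pair, where it did not reach 2-fold. *Dnmt3a* was at 19.07 and 46.0 FPKM. *Tet1*, which oxidises methylcytosine, was at 50.5 and 16.3 FPKM, and *Tet2* at 11.5 and 2.07, a log2 ratio of -2.52. The maintenance genes *Dnmt1* and *Uhrf1* were within 2-fold, at 54.7 and 50.0 FPKM and at 124 and 115. So were *Tet3* and the glycosylase gene *Tdg*, with log2 ratios of 0.14 and 0.20. *Dnmt3l*, the cofactor of the de novo enzymes, had a log2 ratio of -0.67 and was at 1.75 FPKM at day 4. Of 9 genes on the list, 2 were higher, 2 lower and 5 within 2-fold.

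Fgf signalling through ERK drives the exit. Of its 15 genes 4 were higher and 1 lower, with a median of -0.04. The feedback phosphatase genes *Dusp4* and *Dusp6* were at 18.9 and 67.5 FPKM and at 23.6 and 57.2. *Spry1*, another feedback inhibitor, was at 6.91 and 14.8 FPKM. *Spry4* and *Etv5*, also targets of ERK, were level, at 16.8 FPKM in both stages and at 95.8 and 101. *Etv4* and the feedback gene *Spred1* were below 0 within 2-fold, with log2 ratios of -0.78 and -0.86. Among ligands, *Fgf4* was at 74.4 and 53.6 FPKM, *Fgf5* was higher as given above, and *Fgf17* was 10.9-fold lower, at 15.6 and 1.48 FPKM.

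Nodal signalling maintains the epiblast after implantation and induces mesendoderm. Of 18 genes 3 were higher and 5 lower, with a median of -0.45. In the KO-labelled pair 1 of 17 expressed genes was higher and 2 were lower (median -0.33). The fibroblast markers were lower at day 2 as well, and their part in this list was not tested. The ligand gene *Nodal* was at 18.6 and 15.9 FPKM. Its co-receptor *Tdgf1* (Cripto) went from 487 FPKM in ES cells to 145 at day 2 (log2 ratio -1.79), and at 516 and 148 in the KO-labelled pair. The antagonists that Nodal induces, *Lefty1* and *Lefty2*, were at 68.4 and 33.7 FPKM and at 40.5 and 17.7. In the KO-labelled pair their log2 ratios were -0.62 and -0.70, within 2-fold. *Foxh1*, the partner of the SMAD effectors, was higher, at 26.6 and 65.0 FPKM. The effectors *Smad2*, *Smad3* and *Smad4* had ratios between -0.27 and 0.06.

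In the list of the Bmp pathway and *Id* genes 6 of 13 expressed members were lower and none higher (median -0.77). *Id1*, *Id2* and *Id3*, inhibitors of differentiation that BMP and serum induce, were at 21.9 and 5.30, 16.0 and 3.39, and 33.7 and 14.6 FPKM. The ligand gene *Bmp4* was at 12.0 and 3.03 FPKM. All 4 were past 2-fold in the KO-labelled pair as well. At day 4 the 3 *Id* genes were above their ES cell levels, *Id3* at 273 FPKM. The fibroblast markers were lower along with this list as well, 707 and 79.6 FPKM in sum and 15.3 and 4.17 at the median. Their part in it was not tested.

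Wnt targets were split, with 4 of 11 expressed genes lower and 2 higher. *Lef1* was higher as given above, and *Tcf7* was within 2-fold at 25.6 and 37.5 FPKM. *Sp5* went from 10.5 FPKM in ES cells to 1.33 at day 2, and *Axin2*, the common reporter of the pathway, from 6.31 to 3.16. *Cdx1*, which both Wnt and RA can induce, was at 7.34 and 0.127 FPKM, a log2 ratio of -5.90. *Cdx1* was at 6.65 and 0.149 FPKM in the KO-labelled pair. The median of the Wnt list was 0.37 in the WT pair and -1.08 in the KO-labelled pair.

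Several genes of the primitive streak and endoderm were above 1 FPKM at day 2 in the WT pair and below it in the other. Of 6 expressed streak and mesoderm genes 2 were higher and 2 lower (median 0.055), and of 8 expressed endoderm genes also 2 and 2 (median -0.42). With only loci above 1 FPKM in both libraries the endoderm median was -1.3. *T* (brachyury), the T-box gene of the streak, was at 6.86 FPKM in WT ES cells and 12.6 at day 2 (log2 ratio 0.83), and at 1.75 and 0.822 FPKM in the KO-labelled pair (-1.11). *Gsc*, a gene of the anterior streak, was at 0.362 and 2.04 FPKM in the WT pair and at 0.263 and 0.273 in the other. *Cer1*, a secreted Nodal antagonist of anterior endoderm, was at 0.251 and 4.40 FPKM in the WT pair, and at 0.00710 and 0.0588 in the other. The KO-labelled values of *Gsc* and *Cer1*, and of *Foxa2*, *Dkk1* and *Shh* below, are too low for a ratio to be read. *Foxa2* was at 0.207 and 1.79 FPKM, with 0.0516 and 0.125 in the KO-labelled pair. *Dkk1*, a Wnt antagonist, was at 0.115 and 1.53 FPKM, with 0.0990 and 0.149. *Shh* was at 0.0155 and 1.22 FPKM, with 0.00988 and 0.0793. Apart from *T* these are low levels, and 7 of 13 streak and mesoderm genes and 6 of 14 endoderm genes were at or below 1 FPKM in both WT libraries. *Cxcr4* was higher alike in both pairs, at 0.808 and 2.85 FPKM and at 0.802 and 2.80. Other members did not follow this split. *Hand1* was at 1.09 and 0.272 FPKM in the WT pair and at 2.39 and 1.59 in the other. At day 2 *Eomes* was at 2.24 and 1.45 FPKM in the WT and KO-labelled libraries, *Gata4* at 1.12 and 1.34 and *Hhex* at 3.73 and 3.93. *Wnt3*, *Dab2* and *Lama1* were lower past 2-fold in both pairs. Difference between clones and difference between cultures cannot be told apart here.

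Of 22 genes on the RA list 8 were at or below 1 FPKM in both libraries, and of the 14 others 1 was higher and 4 were lower (median -0.46). The shares over all loci were 4.65% higher and 8.22% lower. *Cyp26a1* (NM_007811, chr19:37772298-37776026), which degrades RA and is among its most direct targets, was the higher one, at 1.19 and 3.89 FPKM. In the KO-labelled pair it was at 0.193 and 0.209 FPKM, below the limit at both stages. Of the other genes of the pathway, *Crabp2*, which carries RA, was at 12.7 and 16.6 FPKM and the receptor gene *Rarg* at 29.1 and 45.6, both within 2-fold. *Rarb*, an RA receptor gene, was at 0.130 FPKM in ES cells, 0.0696 at day 2 and 48.0 at day 4. *Dhrs3*, a retinal reductase gene, was at 2.10, 0.822 and 18.4 FPKM at these stages. *Stra8* was at 0.875, 0.108 and 90.4 FPKM. All 3 were below 1 FPKM at day 2 and at their highest after it, and *Rarb* and *Stra8* were below it in ES cells too.

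All 15 anterior *Hox* genes of groups 1 to 5 were at or below 1 FPKM in ES cells and at day 2, and summed to 2.51 and 1.13 FPKM. The sum was 576 FPKM at day 4 and 1026 at day 6. Shh targets, in contrast, were expressed in ES cells. *Ptch1*, the receptor that the pathway induces, was at 9.58 and 9.37 FPKM in ES cells and at day 2, and at 92.6 and 11.2 at days 4 and 6. *Gli1* was at 5.94, 4.67, 36.4 and 6.98 FPKM. The signal transducer *Smo* was at 11.3 FPKM in both. Of 12 expressed genes of the pathway 1 was higher, *Shh* itself, and 1 lower, the effector gene *Gli2* at 7.08 and 1.69 FPKM, with a median of -0.31. Over all loci 4.65% were higher and 8.22% lower, and in the KO-labelled pair no gene of the list was higher.

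Of 22 early neural genes 12 were at or below 1 FPKM in both libraries, and of the others 1 was higher and 4 lower (median -0.44). The shares over all loci were 4.65% higher and 8.22% lower. *Olig2*, *Sox11*, *Nes* and *Zic5* were expressed and within 2-fold, with *Olig2* at 16.5 and 11.4 FPKM and *Sox11* at 9.85 and 10.6. *Sox1*, which marks the neural plate, was at 1.199 and 0.258 FPKM, and at 30.7 at day 4. *Pax6* was at 0.533, 0.771 and 109 FPKM. *Gbx2*, a STAT3 target in ES cells and a hindbrain gene later, was at 10.6, 1.84 and 19.4 FPKM. The Notch ligand gene *Dll1* was the higher one, at 0.623 and 4.14 FPKM (log2 ratio 2.69, and 2.51 in the KO-labelled pair). *Ncam1* was at 3.02 and 0.543 FPKM. Of 8 expressed genes of neurons 1 was higher and 3 were lower (median -0.19, but 0.46 in the KO-labelled pair). *Tubb3* was level at 30.5 and 32.8 FPKM, while *Stmn2* was at 133 and 56.1 and *Nefl* at 25.9 and 7.60.

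**Figure D3:**
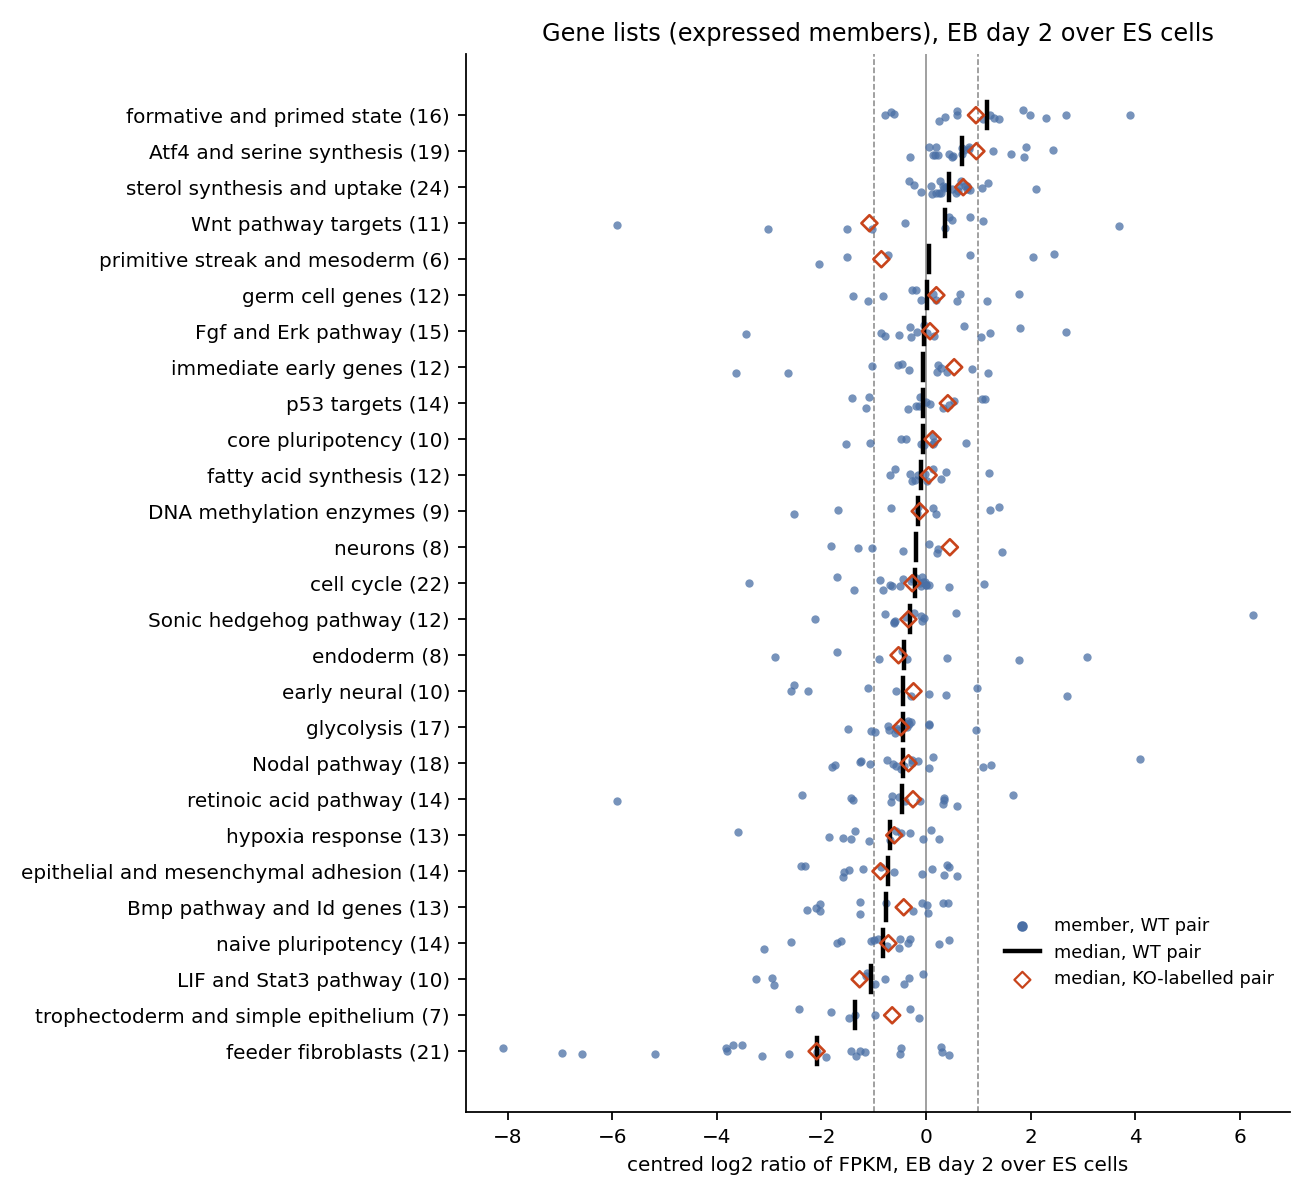
Centred log2 ratios of FPKM, EB day 2 over ES cells (x axis), for the expressed members (points, WT pair) of 27 gene lists, with the number of expressed members in brackets. Vertical position within a row is jitter, black bars are medians of the WT pair, open diamonds medians of the KO-labelled pair, and dashed lines 2-fold. In the WT pair the formative list has the highest median at 1.16 and the feeder list the lowest at -2.08.

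Genes of fibroblasts had the lowest list median of the WT pair. ES cells grew on MEFs. On the list of 22 feeder genes 21 were expressed, 16 were lower and none higher, with a median of -2.08 and -2.09 in the KO-labelled pair. Their FPKM summed to 1377 in ES cells and 140 at day 2, and to 1485 and 156 in the KO-labelled pair. *Thbs1*, a matrix glycoprotein gene, went from 273 FPKM in ES cells to 2.96 at day 2. The smooth muscle actin gene *Acta2* was at 153 and 0.582 FPKM, a log2 ratio of -8.09. *Lox*, which crosslinks collagen, was at 95.7 and 0.795 FPKM. The collagen genes *Col1a1* and *Col1a2* were at 158 and 11.6 FPKM and at 126 and 11.4. These differences of over 10-fold were seen in both pairs.

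Not all fibroblast genes followed. *Dcn* was at 3.61 and 4.59 FPKM, *Lum* at 3.19 and 4.04, *Mmp2* at 13.3 and 18.8, *Col6a3* at 8.60 and 6.31 and *Twist1* at 4.38 and 3.27. *Thy1*, *Postn* and *Col3a1* were lower by 2.25-fold to 2.53-fold. Of 13 markers for MEFs, all 13 were above 1 FPKM in ES cells and 11 at day 2, and the sums were 707 and 79.6 FPKM. The medians were 15.3 and 4.17 FPKM. *Col1a1*, *Tagln*, *Acta2* and *Col1a2* were the highest of these markers in ES cells and weigh most on the sum. No marker was at 0 in any library. In such bulk samples fewer fibroblasts and less RNA of these genes per cell cannot be told apart.

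Of the 15 largest falls by the rule, 5 were on the feeder list (*Thbs1*, *Tagln*, *Timp3*, *Col1a1* and *Col5a1*). *Tnc* (tenascin C) was at 61.5 and 3.27 FPKM. *Ccn2*, a matrix protein that YAP induces, was at 150.0 and 12.5 FPKM. Further ones were *Ccn5*, *Ltbp2*, *Csf1*, *Col5a2*, *Emp1*, *Grem1* and *Ddah1*, with log2 ratios between -4.82 and -3.59. All 15 were lower past 2-fold in the KO-labelled pair, with log2 ratios from -6.51 to -3.23.

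Among 14 adhesion genes 6 were lower and none higher (median -0.73). *Vim* (vimentin) went from 413 FPKM in ES cells to 85.3 at day 2, and *Fn1* (fibronectin) at 270.1 and 93.7. The repressors *Snai2*, *Zeb1* and *Zeb2* were at 2.93 and 0.578, 3.27 and 1.21, and 1.11 and 0.384 FPKM. By contrast *Cdh1* (E-cadherin) was at 146 and 143 FPKM, *Epcam* at 156 and 204 and *Cldn6* at 84.7 and 94.5. Fibroblasts express the mesenchymal genes as well, and how much of their difference came with the feeder markers was not tested. Of 7 expressed genes of trophectoderm and simple epithelium 4 were lower and none higher (median -1.35), and in the KO-labelled pair 1 was lower (median -0.65). The part of the feeder markers in this list was not tested either. Keratin genes were among them, *Krt8* at 80.1 and 32.3 FPKM and *Krt19* at 30.2 and 5.78. In the KO-labelled pair their log2 ratios were -0.41 and -0.65, within 2-fold.

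Of 13 expressed genes that hypoxia induces 6 were lower and none higher, with a median of -0.70 in the WT pair and -0.61 in the other. *Adm* (adrenomedullin) was at 7.19 and 0.616 FPKM. *P4ha1* and *P4ha2*, prolyl hydroxylases of collagen that fibroblasts also express, were at 24.4 and 6.97 FPKM and at 11.7 and 4.01. *Egln1* (PHD2) and *Egln3* (PHD3), oxygen sensors that mark HIF proteins for degradation and are HIF targets themselves, were at 22.1 and 8.93 and at 17.8 and 8.57. *Ankrd37* was at 5.89 and 2.25 FPKM. Of these 6, 4 were past 2-fold in the KO-labelled pair as well, and *Egln3* and *Ankrd37* had log2 ratios of -0.61 and -0.95 there. *Vegfa*, *Pdk1* and *Mif* were within 2-fold with ratios between -0.06 and 0.25. The fibroblast markers moved with this list too, at 707 and 79.6 FPKM in sum and 15.3 and 4.17 at the median. Their part in it was not tested.

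A short sequence was looked for in the hypoxia genes. ACGTG, the core letters of the element that HIF binds, was searched on both strands in the 250 bases upstream of RefSeq start sites (GRCm38.p6). It was present for 9 of 13 hypoxia genes with a promoter in the table (69.2%), beside 25.7% of 9609 expressed genes and 16.6% of all 32851 windows, and for 8 of 16 glycolysis genes. These 13 are not the 13 expressed genes above. They leave out *Ndrg1*, which had no promoter to search, and hold *Car9*, which had a match. *Car9* was at 0.318 and 0.162 FPKM and so was not expressed, unlike the 9609 genes. In 1 of the 13 genes the motif lay within CACGTG, the E-box. A match describes letters and not binding. *Adm*, with the lowest ratio of the list, had none in this window, nor had *Pdk1*, *Kdm3a* and *Mif*, while *Vegfa*, *Bnip3* and *Ero1a* had one and were within 2-fold. The match nearest the start site is shown for the 5 lower genes that have one, with the letters of the motif in capitals as they read on the strand of the gene, and the next sentence gives their positions.
*Ankrd37*: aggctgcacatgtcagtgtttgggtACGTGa
*Egln1*: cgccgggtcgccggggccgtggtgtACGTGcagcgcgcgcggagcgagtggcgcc
*Egln3*: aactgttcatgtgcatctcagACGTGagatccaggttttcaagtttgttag
*P4ha1*: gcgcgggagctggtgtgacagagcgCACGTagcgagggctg
*P4ha2*: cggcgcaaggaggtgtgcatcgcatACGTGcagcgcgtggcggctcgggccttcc
They are chr8:45999851-45999881 on the minus strand for *Ankrd37*, chr8:124949293-124949347 on the minus strand for *Egln1*, chr12:54204074-54204124 on the minus strand for *Egln3*, chr10:59323255-59323295 on the plus strand for *P4ha1* and chr11:54100821-54100875 on the plus strand for *P4ha2*, all in GRCm38.p6. The motif starts 6, 68, 229, 16 and 78 bases upstream of the start site in that order.

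Of 17 glycolysis genes 14 had a ratio below 0 (median -0.44), and 2 were lower past 2-fold, beside 8.22% of all loci. The fibroblast markers were lower too (707 and 79.6 FPKM in sum, 15.3 and 4.17 at the median). Their part in it was not tested. The glucose transporter gene *Slc2a3* went from 479 FPKM in ES cells to 175 at day 2, and *Hk2*, the hexokinase of highly glycolytic cells, at 64.7 and 32.1, with a log2 ratio of -0.68 in the KO-labelled pair. *Ldha* was at 1176 and 809 FPKM. *Gapdh* was at 3979 and 4256 FPKM and *Eno1* at 1612 and 1731, so the enzymes did not move as a block.

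Most genes of sterol synthesis and of the ATF4 response had ratios above 0, the majority within 2-fold. Of 24 sterol genes 21 had a ratio above 0, 3 were past 2-fold and none was lower, with a median of 0.44, and 0.71 in the KO-labelled pair where 9 were past 2-fold. *Fdps*, which makes farnesyl pyrophosphate, was at 132 and 307 FPKM, and *Mvk* (mevalonate kinase) at 10.6 and 22.8. *Sqle*, which makes squalene epoxide, was at 43.5 and 77.6 FPKM. On the fatty acid list 1 of 12 genes was higher, the desaturase gene *Fads2* at 23.5 and 55.7 FPKM, and none was lower (median -0.09). The shares over all loci were 4.65% higher and 8.22% lower.

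Of 19 ATF4 and serine genes 18 had a ratio above 0, 5 were past 2-fold and none was lower (median 0.68, and 0.96 with 9 past 2-fold in the KO-labelled pair). *Ddit3* (CHOP), a stress factor that ATF4 induces, went from 10.9 FPKM in ES cells to 60.1 at day 2, and at 11.3 and 87.6 in the KO-labelled pair. *Chac1*, which degrades glutathione, was at 7.87 and 29.8 FPKM, with 6.13 and 39.9 in the other pair. *Trib3*, a feedback inhibitor, was at 14.9 and 47.2 FPKM, with 14.2 and 93.3. All 3 were higher at day 2 in both pairs, with larger ratios in the KO-labelled one. *Atf4* itself was at 116 and 213 FPKM. The enzymes of serine synthesis *Phgdh* and *Psat1* were at 122 and 171 FPKM and at 271 and 291, and *Asns* at 359.8 and 301.

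The D-type cyclins were the lower genes of the cell cycle list in the WT pair. *Ccnd1*, *Ccnd2* and *Ccnd3*, which drive entry into S phase, were at 109 and 43.0, 38.2 and 3.76, and 128 and 40.8 FPKM. *Ccnd2* was at 523 FPKM at day 4. *Cdkn1b* (p27), an inhibitor of the cycle, was higher at 11.8 and 26.2 FPKM. The replication genes *Mcm2*, *Mcm5* and *Pcna* and the mitotic gene *Ccnb1* had ratios between -0.08 and 0.06. Others were further below 0 within 2-fold, *Ccne2* at -0.89, *Mki67* at -0.68 and *Ccne1* at -0.66. Of all 22 genes 1 was higher and 3 were lower, beside 4.65% and 8.22% of all loci. A ratio below 0 was found for 17 genes, and the median was -0.21. In the KO-labelled pair 1 was higher and 5 were lower (median -0.26). The fibroblast markers were lower at day 2 as well, and their part in the cyclin values was not tested. Among 14 p53 targets the proapoptotic genes *Pmaip1* (NOXA) and *Bbc3* (PUMA) were higher, at 38.1 and 82.9 FPKM and at 13.0 and 29.2, while 3 targets were lower (median -0.055). The arrest gene *Cdkn1a* was at 70.7 and 34.1 FPKM, with 63.6 and 51.3 in the KO-labelled pair.

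The last lists had no clear direction. Of 12 expressed germ cell genes 2 were higher and 2 lower (median 0.02 in log2 units). The meiotic gene *Sycp3* went from 12.2 FPKM in ES cells to 43.1 at day 2, and *Kit* at 13.3 and 6.35. Of 12 expressed immediate early genes 1 was higher and 3 were lower, with a median of -0.05, and 0.54 in the KO-labelled pair. *Ccn1* was at 71.6 and 11.9 FPKM, and *Egr1* at 13.6 and 10.1. The fibroblast markers were lower at day 2 too, and their part in this list was not tested.

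Of the 15 largest rises by the rule, *Enpp2* (autotaxin), which makes lysophosphatidic acid, came first at 1.56 FPKM in ES cells and 39.6 at day 2, 24.6-fold higher, and at 2.03 and 33.9 in the KO-labelled pair. *Otx2*, *Fgf5*, *Pou3f1*, *Zic2*, *Ddit3* and *Pim2* are given above. *Prph* (peripherin), an intermediate filament of peripheral neurons, was at 4.76 and 36.1 FPKM, with 4.32 and 85.3 in the other pair. *Gstt2*, a glutathione transferase gene, was at 7.52 and 55.5 FPKM, and *Selenop*, a selenium carrier gene, at 3.29 and 17.8. At day 4 *Enpp2* was at 0.214 FPKM. *Acss1* was at 2.39 and 10.3 FPKM and *Cds1* at 2.56 and 10.6. Of the noncoding RNAs, *Snhg12*, a snoRNA host, was at 34.1 and 135 FPKM, *Neat1*, the scaffold of paraspeckles, at 7.12 and 27.7, and *D7Ertd143e* at 2.96 and 11.6. All 15 had a ratio past 2-fold in the KO-labelled pair, the smallest being 1.10 for *Neat1*.

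Loci listed at 0 in 1 library were nearly all small RNA genes, which poly-A libraries capture poorly. There were 26 in ES cells and 20 at day 2, and 42 of these 46 were miRNA or snoRNA genes. The 5 with the highest values were *Snord37*, *Snord19*, *Snord58b*, *Snord34* and *Snord38a*, listed at 0 in ES cells and at 975 to 10936 FPKM at day 2. *Snord19* was at 1468 and 0 FPKM in the KO-labelled pair, the other way round. Their transcripts are short, and on a short transcript few fragments give a high FPKM.

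**Figure D4:**
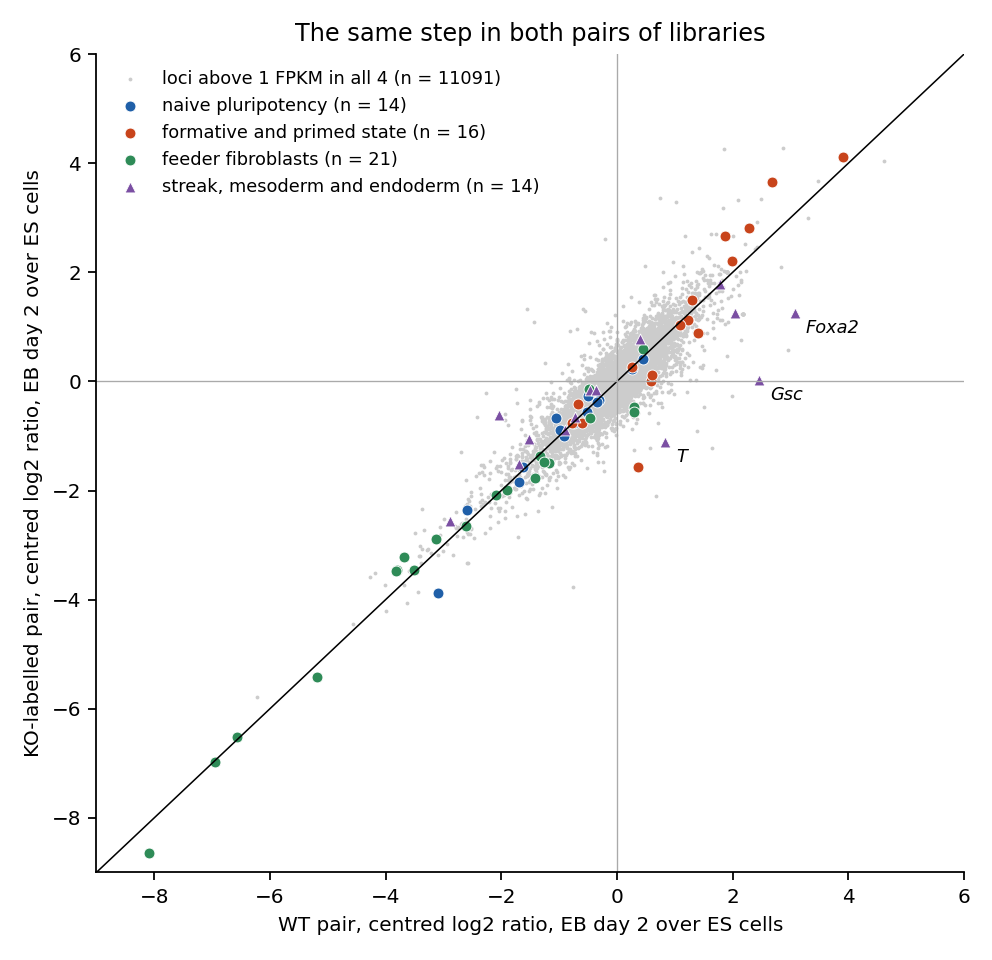
Centred log2 ratio of EB day 2 over ES cells in the WT pair (x axis) and in the KO-labelled pair (y axis) for 11091 loci above 1 FPKM in all 4 libraries (grey), with expressed members of 4 groups of genes on top. The diagonal marks equal ratios. Most naive, formative and feeder genes lie near it, with *Klf4* at -3.09 and -3.87 and the formative gene *Wnt8a* off it at 0.37 and -1.56. *T* lies below it, at 0.83 and -1.11. *Gsc* and *Foxa2* are marked too, but were below 1 FPKM in both KO-labelled libraries, so their distance from it is not read.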

How the data were processed

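Poly-A RNA of ES cells and EBs was sequenced by the authors, who mapped the reads with TopHat to RefSeq genes (mm9, per the labels) and deposited Cuffdiff tables with 1 FPKM value per locus and condition. Versions are not given in the sources used here. Cuffdiff's own fold changes, test statistics and p-values were not used. WT and KO of a stage share a table and were normalized together, stages were not. Tables were joined on the first RefSeq identifier and the locus (23109 loci), and named through RefSeq accessions, which left 316 loci without a symbol, 17 of them past 2-fold. Where a symbol had several loci the one highest in ES cells was used for a list.

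Log2 ratios took no pseudocount and were centred on the median of loci above 1 FPKM in both libraries (0.044 in the WT pair and 0.021 in the KO-labelled pair). A locus at 0 in 1 library got no ratio. List members at or below 1 FPKM in both were counted as not expressed. With 1 library per condition no test was run. The number of fragments behind a value was estimated from the steps of low values and covers counting error only.

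The 28 gene lists, and the comparison itself, were chosen with earlier results of these data known. Named genes were the 15 largest rises and falls among coding and long noncoding genes above 1 FPKM in both libraries and 10 in the higher, with 1 locus, leaving out Gm and Rik models and small RNA genes, then the 5 highest loci listed at 0 in 1 library, and list members past 2-fold or central to a list. A few genes that the rule names are not reported here. Of the listed symbols *Tm7sf2* and *Rhox5* were not matched. The counting was tested on simulated data. Calculations used Python (3.11.15), numpy (2.4.6), pandas (2.3.3) and statsmodels (0.14.6), and plots matplotlib (3.10.9).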

Additional observations from a re-analysis of the deposited data

Results flagged for a closer look

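Of coding and long noncoding genes expressed in both pairs, *Sct*, the gene of the hormone secretin, was the only one past 2-fold in opposite directions, and it was picked out after its values were seen. In the WT pair it went from 1.84 FPKM in ES cells to 0.475 at day 2 (log2 ratio -1.99), and in the KO-labelled pair from 3.05 to 6.68 (1.11). The difference was not tested, as each value comes from 1 library.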

How the results depend on the processing

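Counts of loci past 2-fold moved by over 1.5 times when low values were treated otherwise or the threshold was raised: 337 higher and 619 lower with 1 FPKM added, 366 and 598 with loci above 1 FPKM in both libraries, 1531 and 2084 with no filter, 290 and 497 above 5 FPKM, and 104 and 325 at 4-fold. More were lower than higher under each. Without centring (620 and 957), with the ES values of the table that holds spinal cord (567 and 1034), with the trend with transcript length removed over 10456 loci with a length (381 and 813) and in the KO-labelled pair the counts stayed within 1.5 times. Chosen after seeing the data, leaving out miRNA and snoRNA loci gave 536 and 1001, and asking for 2-fold in both pairs gave 378 and 782. The share past 2-fold between clones at day 2 was 1.24% with 1 FPKM added and 0.973% above 5 FPKM, both also chosen after seeing the data.

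A list median was counted as moved past 0.585 in log2. None of 27 moved without centring, with the other ES values, with 1 FPKM added or without the length trend. Without the length trend 4 medians changed sign, and the early neural median went from -0.44 to -0.05. With loci above 1 FPKM in both libraries the endoderm median was -1.30. In the KO-labelled pair 5 moved, the Wnt targets to -1.08, streak and mesoderm to -0.85, trophectoderm and simple epithelium to -0.65, neurons to 0.46 and immediate early genes to 0.54. The cause was not tested. A fit of stage with clone as a block over all 4 libraries, whose clones are labelled as different genotypes, was not run. Depth limits values under 1 FPKM most, and the lack of replicates limits all.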
